A study of Homo sapiens with 12 samples.

Results

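The DEAD and DEAH box RNA helicases were examined in an RNA-seq series of A549 cells, an epithelial line from a human lung adenocarcinoma. The genes were chosen by name, as DDX or DHX followed by a number and at most 1 letter, and 57 of the 25365 names in the deposited table had that form. Of these, 5 were left out beforehand and 8 had a mean under 1 FPKM (a read level corrected for transcript length and library depth), so 44 helicases remained, 31 with a DDX and 13 with a DHX symbol. The rule used only names and the mean level over the 12 libraries, but it was set with earlier results of these data known. In all, 11881 names had a mean of at least 1 FPKM.

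The 12 libraries came from wild-type (WT) A549 cells and from A549 cells labelled PARP3-/-, each given vehicle or pyridostatin (PDS), a small molecule that stabilizes G quadruplex (G4) DNA. The 4 groups of 3 replicates were WT with DMSO vehicle, PARP3-/- with DMSO vehicle, WT with 1 μM pyridostatin and PARP3-/- with 1 μM pyridostatin, all treated for 24 h. PARP3 is a poly(ADP-ribose) polymerase with a role in DNA repair. The PARP3-/- cells were made with Cas9 by a deletion in the first exon and then cloned by serial dilution, and the number of clones behind the RNA is not given in the sources used here. Genotype and clone therefore cannot be told apart, and the p-values below measure the spread between these libraries.

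DEAD and DEAH box proteins are ATP-dependent enzymes that open RNA duplexes or strip proteins from RNA, and they are named after conserved residues of their ATPase core. DEAD box proteins mostly pry apart short duplexes locally, whereas many DEAH box proteins move along a strand. Between them they serve splicing, the maturation of ribosomes, export of mRNA, translation, decay, mitochondrial RNA and the sensing of viral RNA, and some, DHX9 among them, are known to unwind G4 structures.

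The level of PARP3 itself was checked first. It was 4.41 ± 0.447 FPKM (SD, n = 3) in the vehicle libraries labelled PARP3-/- against 3.73 ± 0.293 FPKM in WT, and 4.58 ± 0.245 against 3.79 ± 0.243 FPKM with pyridostatin (differences 0.683 and 0.792 FPKM, exact two-sided permutation test, p = 0.1 for each, the smallest p that 3 against 3 libraries allow). The level of the gene was thus not lower in the libraries labelled PARP3-/-. A single value per gene cannot show whether a deletion in the first exon is present, and the paper reported that deletion by Sanger sequencing. All directions between genotypes follow the labels. Steps in the lowest values put the depth at roughly 22000000 to 31100000 reads per library. The epithelial keratins KRT8 and KRT18 had means of 3036 and 2653 FPKM over the 12 libraries, CDH1 13.0 and EPCAM 1.51 FPKM. Among 6 markers of other cell types, CD3E was at 0 in every library, PTPRC, PECAM1, VWF and DCN had means of at most 0.0085 FPKM, and the fibroblast collagen COL1A1 had 1.08 FPKM. Some markers differed between the genotypes with both treatments. KRT19 was higher in the libraries labelled PARP3-/- (163 against 90.5 FPKM with vehicle, limma adjusted p = 2.2e-05), as was COL1A1 (1.31 against 0.694 FPKM, limma adjusted p = 0.00667), and CDH1 was lower (10.2 against 14.0 FPKM, limma adjusted p = 0.00117), as was EPCAM (1.16 against 2.12 FPKM, limma adjusted p = 0.00126). The part of these marker differences in any helicase result was not tested.

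One library stood apart, WT vehicle replicate 2. Over all tested genes its median absolute difference from the mean of the other 2 WT vehicle libraries was 0.16 in log2(FPKM + 1), whereas the same measure was 0.048 to 0.096 in the other 11 libraries. Of the 44 helicases, 38 lay outside the range of the other 2 replicates in this library, 25 of them below and 13 above. The same count was 21 to 35 in the other 11 libraries, and it was not taken over all tested genes. Helicases with long transcripts lay below more often than those with short ones, with exceptions both ways. DDX3X was at 93.3 FPKM in replicate 2 and at 118 and 117 FPKM in replicates 1 and 3, and DDX60L was at 3.59 FPKM against 4.90 and 5.25 FPKM. The short DDX39A, in contrast, was at 88.4 FPKM against 70.9 and 71.5 FPKM. Across the 44 helicases Spearman's rho between longest transcript and this deviation was −0.62, and it was −0.65 across 11132 tested genes with a known length, genes that share the same library and are not independent replicates. The 22 helicases with the shorter transcripts (1471 to 4065 bases) had a median deviation of 0.0062, with 10 of 22 below 0, and the 22 with the longer ones (4240 to 6907 bases) of −0.16, with 18 of 22 below 0. Results that change without this library are therefore also given without it below.

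**Figure D1:**
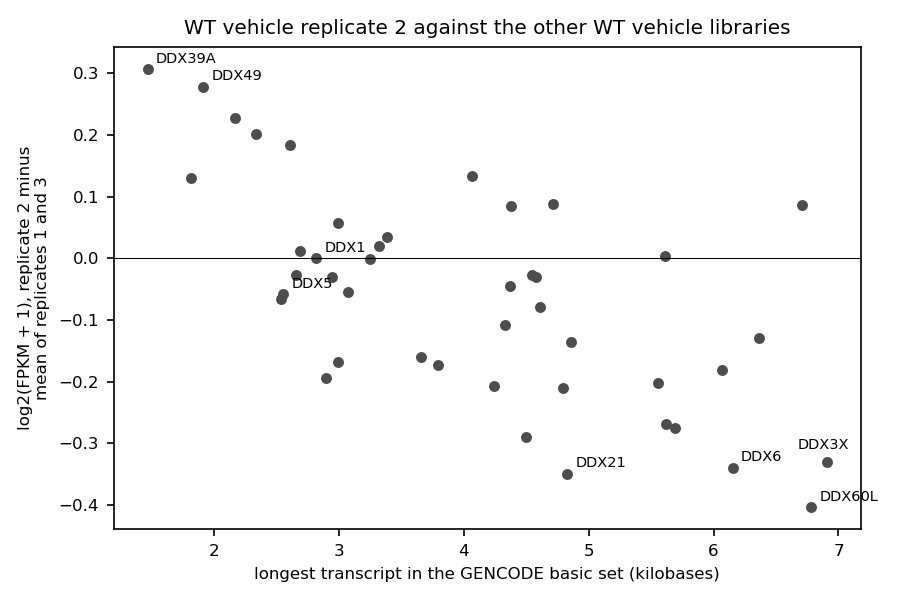
Deviation of WT vehicle replicate 2 from the mean of the other 2 WT vehicle libraries (vertical axis, log2(FPKM + 1)) against the longest transcript of each helicase (horizontal axis, kilobases), 1 point per helicase, n = 44. Short transcripts such as DDX39A and DDX49 lie above 0 and long ones such as DDX3X and DDX60L below, while DDX1 lies at 0.

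As a family the helicases were well expressed and varied little among the libraries. Their means over the 12 libraries ran from 1.14 FPKM for DDX60 to 190 FPKM for DDX5, with a median of 22.1 FPKM against 10.6 FPKM for all tested genes. The highest were DDX5, a transcriptional coactivator and partner of the microRNA processor Drosha, DDX3X, which helps ribosomes start on structured mRNAs (108 FPKM), DDX21, a nucleolar enzyme of ribosomal RNA synthesis (95.2 FPKM), DHX9, which opens RNA and RNA-DNA hybrids (87.6 FPKM), and DDX1, a member of the tRNA ligase complex (78.3 FPKM). The lowest after DDX60 were DHX35, a spliceosome component (3.89 FPKM), DDX60L, a relative of the antiviral DDX60 (4.94 FPKM), DDX20, the Gemin3 subunit of the SMN complex (6.23 FPKM), and DDX12P (8.06 FPKM). DDX12P bears the name of a pseudogene, and its reads may be shared with its near-identical parent gene. The coefficient of variation over the 12 libraries had a median of 5.60% (3.30% to 13.8%) in the helicases and 8.52% in the 11280 tested genes of the same range of levels. The ratio of the highest to the lowest of the 4 group means had a median of 1.09 in the helicases (1.02 to 1.31) and 1.14 in all tested genes, again without matching for level.

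**Figure D2:**
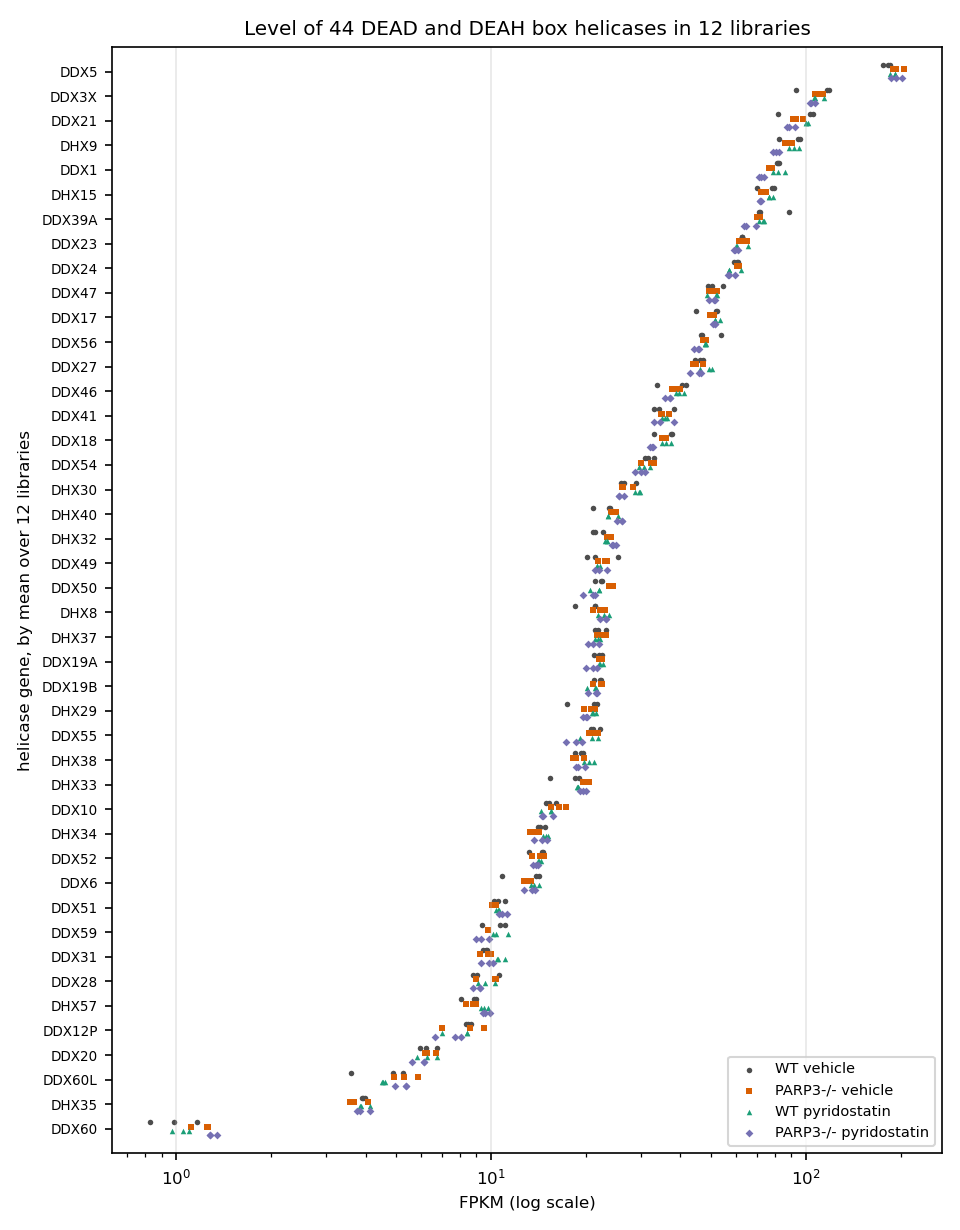
FPKM (horizontal, log scale) of each of the 44 helicases (vertical, ordered by mean) in each of the 12 libraries, coloured by group. The libraries of a gene lie close together over a family range of 1.14 to 190 FPKM, with the widest relative spread for DDX60 and DDX60L.

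The summed level of the 44 helicases was 1612, 1535 and 1604 FPKM in the WT vehicle libraries and 1602, 1595 and 1578 FPKM in the vehicle libraries labelled PARP3-/-. With pyridostatin it was 1606, 1585 and 1633 FPKM in WT and 1528, 1546 and 1528 FPKM in the libraries labelled PARP3-/-. The vehicle groups overlapped only through WT replicate 2, without which the WT libraries lay above. The pyridostatin groups did not overlap, the libraries labelled PARP3-/- being the lower. As a share of the summed FPKM of all names, however, the pyridostatin groups overlapped. They had 0.310% to 0.314% in WT and 0.304% to 0.310% in the libraries labelled PARP3-/-. The vehicle groups overlapped in this share too, also without WT replicate 2. WT vehicle replicates 1 and 3 were at 0.318% and 0.309%, and PARP3-/- vehicle replicate 2 lay between them at 0.312%. In bulk RNA fewer cells of a kind and less RNA per cell cannot be told apart.

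Of the 8 helicases under 1 FPKM, DDX39B, DDX43, DDX53 and DHX16 were listed at 0 in all 12 libraries. DDX39B drives mRNA export and DHX16 acts in splicing, whereas DDX43 and DDX53 are best known from testis. DDX4 and DDX25, helicases of germ cells, had means of 0.0114 and 0.0106 FPKM, DHX58, an interferon-induced sensor of viral RNA, had 0.0306 FPKM, and DDX26B had 0.0587 FPKM. These 8 were not tested.

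The 4 genotype and treatment comparisons and their interaction were tested with limma on log2(FPKM + 1) over all 11881 genes, and a gene was called at a Benjamini-Hochberg adjusted p under 0.05. The pseudocount shrinks differences of weakly expressed genes. All helicase differences were small, between −0.21 and 0.20, so no helicase came near the absolute log2 fold change of 1 that the study required, and the median standard error of a helicase difference was 0.049.

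Between the genotypes with vehicle, 1 of 44 helicases was called, DHX32, which was higher in the libraries labelled PARP3-/- (9.41% of all tested genes were called). At an unadjusted p under 0.05 there were 4, all higher in the libraries labelled PARP3-/-: DHX32, DHX33, DDX50 and DDX5 (21.6% of all genes). The median difference of the 44 was 0.013, against 0.015 for all tested genes, and 27 of 44 lay above 0 against 55.6% of all genes. With each library shifted to a common median, the medians were −0.027 and −0.025, and 34 of 44 helicases lay below 0, so no direction of the family can be given here. Without WT vehicle replicate 2 the median was −0.0087 and 21 of 44 lay above 0. Then 1 helicase was called (13.8% of all tested genes), and it was DDX21, lower in the libraries labelled PARP3-/- (log2 difference −0.15, limma adjusted p = 0.0177), and no longer DHX32 (limma adjusted p = 0.0570).

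Between the genotypes with pyridostatin, DDX1 and DHX30 were called, both lower in the libraries labelled PARP3-/- (2 of 44, against 10.9% of all tested genes). At an unadjusted p under 0.05 there were 12 (24% of all genes), of which DDX60 and DHX32 were the higher ones and the other 10 were lower. The median difference was −0.047, against 0.0083 for all tested genes, and 33 of 44 helicases lay below 0 against 46.9% of all genes. That count ran from 30 to 37 over 20 alternative settings, in which 44.3% to 56.5% of all genes lay below 0. Leaving out WT vehicle replicate 2, which is not in this comparison but enters its estimate of the spread, left the differences as they were and raised the calls to 10, all lower (19.3% of all genes). These were DDX1, DDX18, DDX21, DDX39A, DDX46, DDX56, DDX59, DHX9, DHX15 and DHX30, of which DDX18, DDX39A, DDX46, DDX56, DDX59 and DHX15 are named after their values were seen.

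With pyridostatin against vehicle, limma called 0 of 44 helicases in WT cells (4.17% of all tested genes) and 5 had an unadjusted p under 0.05 (20.3%). The median difference was 0.020, against 0.0030 for all genes, and 29 of 44 lay above 0 against 50.9%. Under the common median it was −0.013 and 17 of 44 lay above 0, and without WT vehicle replicate 2 it was 0.0039 and 23 of 44 lay above 0. In the cells labelled PARP3-/-, 1 of 44 was called, DDX50, which fell (5.56% of all tested genes), and 7 had an unadjusted p under 0.05 (19.6%). The median difference was −0.047, against 0.0021 for all genes, and 32 of 44 helicases lay below 0 against 49% of all genes. Over the 20 settings 29 to 33 helicases lay below 0, with 46.4% to 56.6% of all genes. Without WT vehicle replicate 2 the calls were 1 in WT, DHX30 (higher, log2 difference 0.16, limma adjusted p = 0.0457), against 5.94% of all genes, and 4 in the cells labelled PARP3-/-, against 13.1%. The 4 were DDX50, DDX18 and DHX9, which fell, and DHX57, which rose.

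The interaction asks whether pyridostatin moved a gene differently in the 2 genotypes. limma called 0 of 44 helicases (0% of all tested genes were called), and 3 had an unadjusted p under 0.05 (4.39%), DDX50, DHX30 and DDX1. Of the 44 interaction values, 37 lay below 0, against 53.2% of all genes, with a median of −0.068 against −0.0073. Over 19 alternative settings 33 to 40 helicases lay below 0, with 48% to 56.2% of all genes. The count of 33 came without WT vehicle replicate 2, when 49.5% of all genes lay below 0 and the median of the helicases was −0.043. The comparisons share libraries, so these counts are not separate evidence of each other. Within a comparison the 44 helicases also share the same libraries and are not independent replicates.

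**Figure D3:**
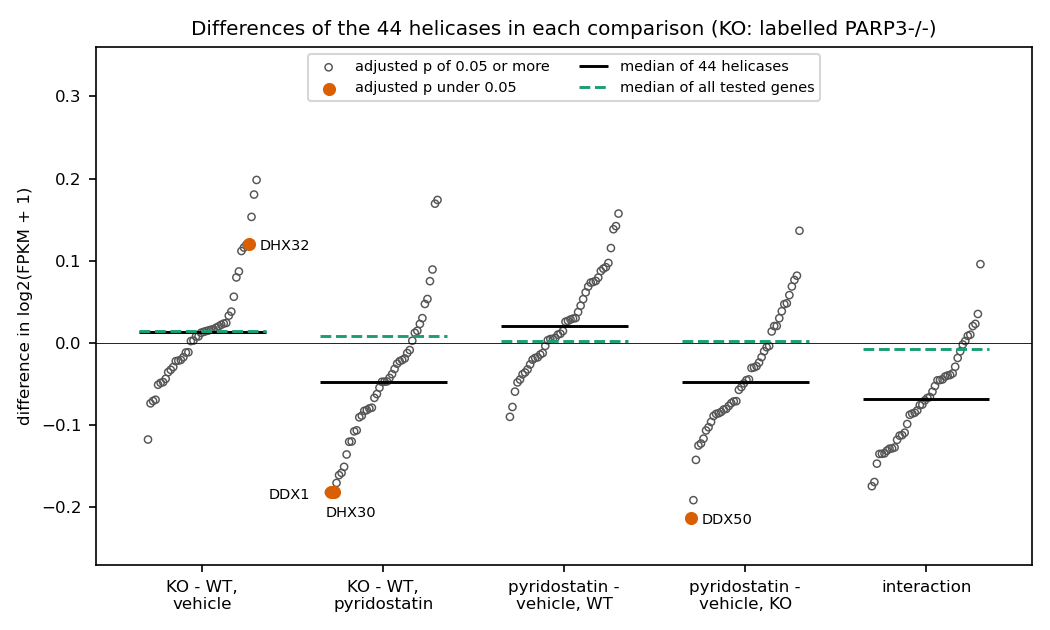
Difference in log2(FPKM + 1) (vertical) of the 44 helicases in the 5 comparisons (horizontal), sorted within each, with filled points for an adjusted p under 0.05, black lines for the helicase median and dashed lines for the median of all tested genes. The black line lies at −0.047 in the pyridostatin comparison of genotypes and in the pyridostatin comparison within the cells labelled PARP3-/-, and at −0.068 for the interaction, below the dashed line in each.

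Among the 5 helicases of transcription, microRNA processing and ribonucleoprotein assembly, DDX1 was the one called. DDX1 belongs to the complex that rejoins tRNA pieces after intron removal and is also known to gather at DNA breaks where RNA-DNA hybrids form. With vehicle it was at 82.1, 81.5 and 80.9 FPKM in WT and at 76.6, 78.0 and 78.2 FPKM in the libraries labelled PARP3-/-. With pyridostatin it was at 81.5, 78.9 and 85.8 FPKM in WT and at 72.0, 73.5 and 71.2 FPKM in the libraries labelled PARP3-/-. The 3 pyridostatin libraries labelled PARP3-/- were the lowest of the 12, and within each treatment the genotypes did not overlap. With pyridostatin the level was 72.2 ± 1.17 FPKM against 82.1 ± 3.47 FPKM in WT (SD, n = 3), 0.880 times the WT mean, with a log2 difference of −0.18 (SE 0.035, limma adjusted p = 0.0063). It was called in all 20 alternatives (limma adjusted p 0.0034 to 0.0323). With vehicle the difference was −0.069 (SE 0.035, limma adjusted p = 0.288), and the interaction was −0.11 (SE 0.049, limma adjusted p = 0.999).

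DHX9, also known as RNA helicase A, unwinds RNA-DNA hybrids and G4 structures. With pyridostatin it was at 91.5, 88.4 and 94.8 FPKM in WT and at 78.9, 80.6 and 82.4 FPKM in the libraries labelled PARP3-/-. With vehicle it was at 95.8, 82.2 and 94.4 FPKM in WT, and 85.8, 86.4 and 90.2 FPKM in the libraries labelled PARP3-/-. The genotypes overlapped with vehicle, where WT replicate 2 was the lowest of the 6, and did not overlap with pyridostatin. The log2 difference with pyridostatin was −0.18, as for DDX1, with a larger standard error of 0.056 (limma adjusted p = 0.0640). DHX9 passed the threshold in 4 of 20 alternatives, among them without WT vehicle replicate 2 (limma adjusted p = 0.0043).

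DDX5 and its paralog DDX17 cooperate as coactivators, and DDX5 had 190 FPKM against 50.9 FPKM for DDX17. With vehicle DDX5 was at 185, 176 and 182 FPKM in WT and at 205, 194 and 190 FPKM in the libraries labelled PARP3-/-, without overlap (log2 difference 0.12, SE 0.044, limma adjusted p = 0.146). DDX17 was at 51.9, 44.8 and 52.2 FPKM in WT and at 50.2, 51.0 and 49.5 FPKM in the libraries labelled PARP3-/-, with overlap (log2 difference 0.020, limma adjusted p = 0.882). Neither was called in any comparison. DDX20, which helps load Sm proteins onto small nuclear RNAs, had group means of 5.96 to 6.38 FPKM and was not called either.

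Of the 2 helicases of mitochondrial RNA, DHX30, which takes part in the assembly of the mitochondrial ribosome, was called between the genotypes with pyridostatin. It was at 29.8, 29.6 and 28.7 FPKM in WT and at 25.5, 26.4 and 25.6 FPKM in the libraries labelled PARP3-/-. With vehicle it was at 25.9, 28.8 and 26.4 FPKM in WT and at 26.2, 28.3 and 26.0 FPKM in the libraries labelled PARP3-/-. The genotypes overlapped with vehicle and separated with pyridostatin, where the WT libraries with pyridostatin were, apart from replicate 3, higher than all others. Replicate 2 was the highest of each vehicle group. With pyridostatin the level was 25.8 ± 0.537 FPKM against 29.4 ± 0.593 FPKM in WT (SD, n = 3), 0.878 times the WT mean (log2 difference −0.18, SE 0.046, limma adjusted p = 0.0311). The call was lost when any 1 of the 6 libraries in the comparison was left out (14 of 20 alternatives kept it, limma adjusted p 0.0065 to 0.111), and the interaction was −0.17 (SE 0.066, limma adjusted p = 0.999). The annotation places a small RNA of 96 bases inside exons of DHX30 on the same strand. DDX28, which helps build the large mitochondrial subunit, had group means of 9.08 to 9.87 FPKM and was not called.

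Ribosome biogenesis held 16 of the 44 helicases, of which 14 lay below 0 with pyridostatin in the cells labelled PARP3-/- (median −0.072) and 10 below 0 in WT (median −0.016), or 8 without WT vehicle replicate 2 (median −0.0086). Over all tested genes 49% lay below 0 in the cells labelled PARP3-/- (median 0.0021) and 48.8% in WT (median 0.0030). The one helicase of this group that was called was DDX50, a nucleolar paralog of DDX21. In the cells labelled PARP3-/- it was at 23.7, 24.3 and 24.5 FPKM with vehicle and at 21.1, 21.4 and 19.6 FPKM with pyridostatin. In WT it was at 22.5, 21.5 and 22.4 FPKM with vehicle and at 22.0, 20.6 and 22.0 FPKM with pyridostatin. The 3 vehicle libraries labelled PARP3-/- were thus the highest of the 12 and did not overlap with any other group, while the WT treatments overlapped. In the cells labelled PARP3-/- DDX50 fell from 24.1 ± 0.432 to 20.7 ± 0.960 FPKM (SD, n = 3), to 0.858 times the vehicle level (log2 difference −0.21, SE 0.042, limma adjusted p = 0.0170). The call held in 17 of 20 alternatives and was lost without PARP3-/- vehicle replicate 2, PARP3-/- vehicle replicate 3 or PARP3-/- pyridostatin replicate 3 (limma adjusted p 0.0078 to 0.0721 over the 20). In WT the difference was −0.038 (SE 0.042, limma adjusted p = 0.664), and the interaction was −0.17 (SE 0.060, unadjusted p = 0.0146 and adjusted p = 0.999, limma).

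DDX21, which senses the output of ribosomal RNA genes and also unwinds G4 RNA, was not called with all 12 libraries. With vehicle it was at 106, 81.8 and 104 FPKM in WT and at 97.6, 93.1 and 91.3 FPKM in the libraries labelled PARP3-/-. With pyridostatin it was at 99.9, 100.2 and 102 FPKM in WT and at 87.3, 88.6 and 92.1 FPKM in the libraries labelled PARP3-/-. The low value of WT vehicle replicate 2 made the vehicle groups overlap, and the pyridostatin groups did not. The log2 difference with pyridostatin was −0.17 (SE 0.079, limma adjusted p = 0.223), and without WT vehicle replicate 2 its standard error was 0.031 (limma adjusted p = 0.0045).

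DDX55, of the large ribosomal subunit pathway, was at 21.8, 21.2 and 20.5 FPKM with vehicle and at 18.6, 19.4 and 17.3 FPKM with pyridostatin in the cells labelled PARP3-/-, without overlap (log2 difference −0.19, SE 0.056, limma adjusted p = 0.0785). It shares 16.2% of its exon bases with EIF2B1 on the other strand. DDX31, also of the large subunit pathway, was at 9.63, 9.46 and 9.75 FPKM with vehicle and at 10.6, 10.5 and 11.1 FPKM with pyridostatin in WT, without overlap (log2 difference 0.14, SE 0.042, limma adjusted p = 0.0921). DHX33, a nucleolar helicase that promotes ribosomal RNA synthesis, was at 19.0, 15.4 and 18.5 FPKM in WT and at 19.9, 20.5 and 19.6 FPKM in the libraries labelled PARP3-/- with vehicle (log2 difference 0.18, SE 0.063, limma adjusted p = 0.112). The log2 difference of DHX33 was 0.091 without WT vehicle replicate 2. None of these 3 passed the threshold in any of the 20 alternatives of the comparison given. The remaining 11 of this group had means of 10.6 to 59.4 FPKM and were not called with all 12 libraries.

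The 7 splicing helicases act at successive steps, from DDX46 and DDX23, which admit the U2 and the tri-snRNP particles, through DHX38 and DHX8, which remodel the active spliceosome and release the mRNA, to DHX15, which takes the machine apart. None was called with all 12 libraries, and DDX46 and DHX15 were called without WT vehicle replicate 2, as above. Their means ran from 3.89 FPKM for DHX35 to 74.6 FPKM for DHX15, with DDX23 at 62.0, DDX46 at 38.5, DDX41 at 35.3, DHX8 at 22.0 and DHX38 at 19.4 FPKM. With pyridostatin 6 of 7 lay below 0 between the genotypes (median −0.047), and with vehicle 3 of 7 did (median 0.014), or 4 of 7 without WT vehicle replicate 2 (median −0.041). Over all tested genes 46.9% lay below 0 with pyridostatin and 44.1% with vehicle, or 47.8% with vehicle without WT vehicle replicate 2.

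The 3 helicases of mRNA export were not called with all 12 libraries. DDX39A, which loads export factors onto mRNA, was at 72.9, 71.1 and 73.5 FPKM in WT and at 63.5, 64.7 and 69.6 FPKM in the libraries labelled PARP3-/- with pyridostatin. These groups did not overlap, and with the other libraries in the fit the limma adjusted p was 0.296 (0.0214 without WT vehicle replicate 2, where DDX39A was at 88.4 FPKM). The paralogs DDX19A and DDX19B, which release mRNA at the nuclear pore, had nearly equal means of 21.9 and 21.5 FPKM. Their sequences are close and the annotation has a readthrough transcript over both, so reads may have been split between them. With pyridostatin the log2 difference between genotypes was −0.088 for DDX19A (limma adjusted p = 0.166) and 0.012 for DDX19B (limma adjusted p = 0.908).

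Of the helicases of translation and mRNA fate, limma called 0 of 4 in each comparison, also without WT vehicle replicate 2. DDX3X had group means of 105 to 110 FPKM and DHX29, which helps the small subunit scan structured leaders, of at most 21.2 FPKM. DDX6, a repressor of translation in P-bodies, had group means of 13.0 to 13.8 FPKM, and DHX34, of nonsense-mediated decay, of 13.7 to 14.9 FPKM. All 4 lay below 0 between the genotypes with pyridostatin (median −0.055). With vehicle 1 of 4 did (median 0.019), or 4 of 4 without WT vehicle replicate 2 (median −0.087). Over all tested genes 46.9% lay below 0 with pyridostatin and 44.1% with vehicle. Of the interaction values, 3 of 4 lay below 0 with all 12 libraries and 1 of 4 without WT vehicle replicate 2. With pyridostatin in WT all 4 lay above 0 (median 0.059), but without WT vehicle replicate 2 only 1 of 4 did (median −0.024). With all 12 libraries none of the 4 helicases had an unadjusted p under 0.05 in any of these comparisons. Without WT vehicle replicate 2, DHX29 did between the genotypes with pyridostatin (limma unadjusted p = 0.0345). DDX3X then did between the genotypes with vehicle (limma unadjusted p = 0.0304) and with pyridostatin in WT (limma unadjusted p = 0.0208).

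Both helicases of innate immune sensing had higher means in the libraries labelled PARP3-/- with both treatments, without being called. Without WT vehicle replicate 2 the vehicle log2 difference fell from 0.153 to 0.0927 for DDX60 and from 0.198 to 0.0637 for DDX60L. DDX60, which is induced by interferon, was at 1.10, 1.05 and 0.972 FPKM in WT and at 1.28, 1.28 and 1.35 FPKM in the libraries labelled PARP3-/- with pyridostatin. These groups did not overlap (log2 difference 0.17, SE 0.071, limma adjusted p = 0.163), whereas the vehicle groups did, at 0.984, 0.828 and 1.17 against 1.25, 1.12 and 1.26 FPKM. DDX60L was at 4.62, 4.50 and 4.55 FPKM in WT and at 4.97, 5.39 and 5.39 FPKM in the libraries labelled PARP3-/- with pyridostatin, again without overlap (log2 difference 0.17, SE 0.10, limma adjusted p = 0.351).

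Of the 5 less well assigned helicases, DHX32, whose substrate is not settled, was called between the genotypes with vehicle. It was at 21.4, 21.2 and 22.7 FPKM in WT and at 23.3, 23.9 and 24.0 FPKM in the libraries labelled PARP3-/-. With pyridostatin it was at 23.0, 23.4 and 23.4 FPKM in WT and at 24.9, 24.3 and 24.4 FPKM in the libraries labelled PARP3-/-. The genotypes did not overlap with either treatment, and the treatments did not overlap in either genotype, the WT vehicle libraries being the lowest and the pyridostatin libraries labelled PARP3-/- the highest. With vehicle the level was 23.7 ± 0.362 against 21.7 ± 0.818 FPKM (SD, n = 3), 1.09 times the WT mean (log2 difference 0.12, SE 0.033, limma adjusted p = 0.0475). This call stood close to the threshold and held in 3 of 20 alternatives (limma adjusted p 0.0229 to 0.218). DHX32 shares 409 exon bases with BCCIP on the opposite strand, and although the library kit keeps strand, whether counting used it is not given in the sources used here.

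DHX57, whose role is little known, was at 8.94, 8.01 and 8.85 FPKM with vehicle and at 9.82, 9.32 and 9.53 FPKM with pyridostatin in WT. The cells labelled PARP3-/- had 8.98, 8.78 and 8.35 FPKM with vehicle and at 9.46, 9.59 and 9.96 FPKM with pyridostatin. The treatments did not overlap in either genotype, and the log2 difference was 0.14 in both (SE 0.047 for each, limma adjusted p = 0.131 in WT and 0.128 in the cells labelled PARP3-/-). Without WT vehicle replicate 2 the log2 difference in WT was 0.093 (limma adjusted p = 0.188). In the cells labelled PARP3-/- it stayed at 0.14, with a limma adjusted p of 0.0328. DDX59, linked to ciliary signalling, DHX40 and DDX12P had means of 10.0, 24.3 and 8.06 FPKM and were not called with all 12 libraries.

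**Figure D4:**
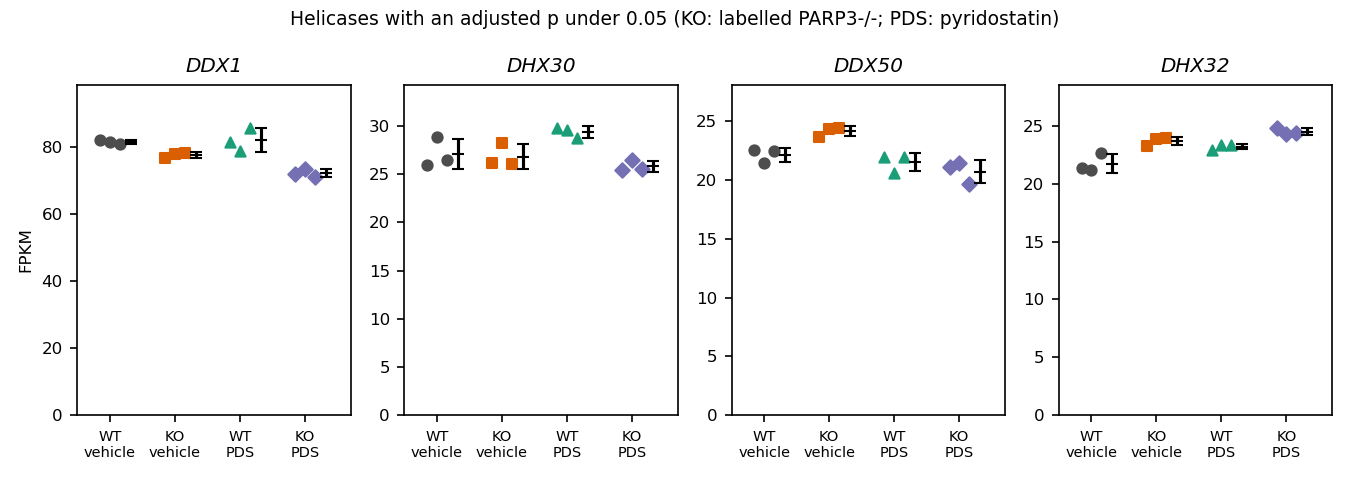
FPKM (vertical, from 0) of the 4 helicases with an adjusted p under 0.05 in at least 1 comparison, in each of the 12 libraries (points) with the mean and SD of each group of 3 (bars). DDX1 and DHX30 are lowest in the pyridostatin libraries labelled PARP3-/- at 72.2 and 25.8 FPKM, DDX50 is highest with vehicle in the cells labelled PARP3-/- at 24.1 FPKM, and DHX32 spans 21.7 to 24.5 FPKM.

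Helicases work with partners, and 5 lists of such genes were examined beside the family. Among 18 tested RNA helicases without a DDX or DHX symbol, which include the EIF4A factors of translation initiation, 2 were called, each in 1 comparison in which 5.56% or 10.9% of all tested genes were. UPF1, the motor of nonsense-mediated decay, rose with pyridostatin in the cells labelled PARP3-/- from 17.4 ± 0.382 to 19.4 ± 0.415 FPKM (SD, n = 3, log2 difference 0.14, limma adjusted p = 0.0249). HELZ2, a nuclear receptor coactivator that interferon induces, was higher in the libraries labelled PARP3-/- with pyridostatin at 1.87 ± 0.143 against 1.45 ± 0.0144 FPKM (SD, n = 3, log2 difference 0.23, limma adjusted p = 0.0213). Neither pair of groups overlapped.

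The decapping factor DCP1B and the initiation factor EIF5 were each called with pyridostatin in both genotypes. DCP1B, a cofactor of the decapping enzyme, was at 5.31, 5.87 and 5.43 FPKM with vehicle and at 8.36, 8.41 and 7.64 FPKM with pyridostatin in WT. The cells labelled PARP3-/- had 5.23, 5.79 and 6.27 FPKM with vehicle and at 7.98, 8.11 and 8.71 FPKM with pyridostatin. All 6 pyridostatin libraries lay above all 6 vehicle libraries. DCP1B rose 1.47-fold in WT (log2 difference 0.48, SE 0.064, limma adjusted p = 0.0020) and 1.43-fold in the cells labelled PARP3-/- (0.46, SE 0.064, limma adjusted p = 0.0026). EIF5, which triggers GTP hydrolysis when the start codon is found, was at 64.4, 59.6 and 64.2 FPKM with vehicle and at 52.3, 49.9 and 51.7 FPKM with pyridostatin in WT. The cells labelled PARP3-/- had 56.2, 56.7 and 59.1 FPKM with vehicle and at 48.4, 46.6 and 46.5 FPKM with pyridostatin. Again the treatments did not overlap, and EIF5 fell to 0.818 and 0.822 times the vehicle level (log2 difference −0.28, SE 0.040 in each, limma adjusted p = 0.0030 and 0.0031).

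Of the 12 decapping and P-body genes, 3 rose with pyridostatin in the cells labelled PARP3-/- (median of the list 0.086, against 0.0021 for all genes), DCP1B, EDC3 and EIF4ENIF1 (limma adjusted p = 0.0435 and 0.0498 for the latter pair). Over all tested genes 5.56% were called there, 3.05% as higher. In WT 1 of the 12 rose (4.17% of all genes were called), and the median of 0.086 became 0.0056 without WT vehicle replicate 2. Of the 12 translation initiation partners, 2 were called in WT and 1 in the cells labelled PARP3-/-, EIF5 being the one that fell, and PDCD4, an inhibitor of EIF4A, rose in WT (log2 difference 0.22, limma adjusted p = 0.0400). Among 15 genes of the exon junction and TREX export complexes, 3 were called, 1 in each of 3 comparisons in which 9.41%, 10.9% and 4.17% of all tested genes were, so these counts are near or below the background. THOC7 was lower in the libraries labelled PARP3-/- with vehicle (−0.15, limma adjusted p = 0.0424) and THOC3 with pyridostatin (−0.17, limma adjusted p = 0.0148), while CASC3 rose with pyridostatin in WT (0.14, limma adjusted p = 0.0478). Among 16 G-patch proteins and other cofactors, which switch DEAH box helicases on, GPATCH4 was lower in the libraries labelled PARP3-/- with pyridostatin (−0.14, limma adjusted p = 0.0225). In the cells labelled PARP3-/- the splicing regulator RBM10 rose with pyridostatin (0.15, limma adjusted p = 0.0498) and RBM17 fell (−0.12, limma adjusted p = 0.0408). CASC3, EDC3, EIF4ENIF1, PDCD4, RBM10, RBM17 and THOC7 passed the threshold in 3 to 6 of their 20 alternatives. UPF1, GPATCH4 and THOC3 passed in 16 of 20, HELZ2 in 15 of 19, EIF5 in 19 of 20 in WT, and DCP1B in 20 of 20 in both genotypes. Leaving out WT vehicle replicate 2 also changed which other genes of these lists were called.

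Because pyridostatin binds G4 structures, the promoters of the helicases were searched for runs of G that could form one. The window ran from 250 bases before to 50 after the start of each gene in the RefSeq promoters of GRCh38.p14, and 39 of the 44 helicases were matched by symbol. The motif was GGG repeated 4 times with spacers of 1 to 7 bases of any kind, on either strand. It occurred in 9 of 39 helicase promoters (23.1%), in 24.1% of all 27305 promoters and in 34.1% of the 8645 promoters of tested genes. A site of each of 4 helicases is shown because DHX30 was the only called helicase with a match and because DHX9, DDX46 and DDX59 were called with it once WT vehicle replicate 2 was left out. Capitals mark the runs of G.
DHX30: GGGccGGGtgctGGGGcatcccGGG
DHX9: GGGagatGGGctgagccGGGcGGG
DDX46: GGGcgccGGGaagactGGGcGGGG
DDX59: GGGaGGGaGGGaGGG
All 4 are written 5′ to 3′ on the strand that carries the G. The DHX30 site lies at chr3:47802936-47802960 on the plus strand, at positions −202 to −178 from the start, on the sense strand. The DHX9 site lies at chr1:182839185-182839208 on the minus strand, positions −162 to −139, antisense to the gene. The DDX46 site is at chr5:134758633-134758656, plus strand, positions −146 to −123, sense, and the DDX59 site at chr1:200670033-200670047, plus strand, positions −140 to −126, antisense. DDX59 had a further match of 31 bases at chr1:200669972-200670002, not shown here. A match describes the letters of the window only.

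Medians were also taken for the helicases with and without the motif. Between the genotypes with pyridostatin the 9 with a match had a median log2 difference of −0.047, with 9 of 9 below 0, and the 30 without a match of −0.051, with 21 of 30 below 0. With pyridostatin in WT the medians were 0.030 and 0.026 (−0.026 and 0.013 without WT vehicle replicate 2), and in the cells labelled PARP3-/- they were −0.057 and −0.045. In WT 2 of 9 and 11 of 30 lay below 0, and in the cells labelled PARP3-/- 6 of 9 and 21 of 30. No match was found for DDX1, the helicase whose call held in every alternative. DDX21, DDX39A, DDX56 and DHX15, also called without WT vehicle replicate 2, had no match either, and the promoter of DDX18 was not among those searched.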

How the data were processed

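RNA of A549 cells was sequenced from stranded mRNA libraries as single-end reads of 75 bases. The authors deposited FPKM values per gene and library, without pooling replicates, and the submitters' processing notes name bcl2fastq 2.16, STAR 2.5 and Cufflinks, with the builds hg19 and mm9. The annotation and the setting for strand are not given in the sources used here. Groups and replicate numbers came from the sample titles. Mapping, length and depth scaling are thus already in the values. The authors tested counts with DESeq2, and those were not used here.

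The values were taken as log2(FPKM + 1) without further scaling for names with a mean of at least 1 FPKM. limma 3.58.1 in R 4.3.3 fitted the 4 groups in one model (eBayes with a trend, no block) with Benjamini-Hochberg adjustment over 11881 genes. The PARP3 level was tested by exact permutation of the libraries, two-sided. The procedure was tested on simulated data with independent noise in each gene. Those data held no deviation shared across genes, such as that of WT vehicle replicate 2, so the test does not cover it. Relative depth came from the most common ratio to the first library among names with low values, at which 12.6% to 14.2% of the names compared lay. Absolute depth came from 459 names whose low values step by whole reads, so it is approximate (quartiles 22100000 and 26300000 reads for one library). Transcript lengths and overlaps came from GENCODE release 29, promoters from RefSeq, handled in Python 3.11.15 with pandas 2.3.3, numpy 2.4.6 and scipy 1.17.1, with figures in matplotlib 3.10.9.

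Helicases, roles, partner and marker lists, and tests were chosen with earlier results of these data known. Helicases were named if called, if among the 5 highest or 5 lowest means, if among the 3 smallest p-values of a comparison, or as paralog pairs. Up to 3 partners were named per list. The alternatives were a pseudocount of 0.1, no filter, a minimum mean of 5 FPKM, only the libraries compared, a block for the replicate number, quantile normalization, a common median, eBayes with no trend, and each library left out.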

Additional observations from a re-analysis of the deposited data

How the results depend on the processing

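The count of helicases called between the genotypes with vehicle was 1 with all libraries and 0 with a pseudocount of 0.1, quantile normalization, a common median, only the libraries compared, eBayes without a trend, or the replicate block, and 0 to 1 with single libraries left out. With pyridostatin it was 2 with all libraries, 4 under the common median, 7 with only the libraries compared, and 1 to 10 with single libraries left out. The 10 came without WT vehicle replicate 2, and the count of 1 without any one of WT pyridostatin replicates 1 and 3 and PARP3-/- pyridostatin replicates 1, 2 and 3. For pyridostatin in WT the count was 0 and 0 to 1 with libraries left out. For pyridostatin in the cells labelled PARP3-/- it was 1, 2 with only the libraries compared and 0 to 4 with libraries left out, 4 without WT vehicle replicate 2. The interaction count was 0 throughout. The cause of these changes was not tested, except that fewer libraries enter the fit with only the libraries compared. The difference in PARP3 stayed between 0.431 and 0.934 FPKM with libraries left out. Values near 0 changed sign for DDX1 with pyridostatin in WT (−0.023 under the common median, and −0.022 without WT pyridostatin replicate 3 to 0.038 without replicate 2) and for DHX30 between genotypes with vehicle (−0.049 to 0.033 with libraries left out, 0.033 without WT vehicle replicate 2, 0.0047 and 0.0093 without PARP3-/- vehicle replicates 1 and 3). The share of all tested genes below 0 moved with scaling, from 44.1% to 59.1% between the genotypes with vehicle under the common median.

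Same-numbered libraries shared little beyond a number. The correlation of their deviations across genes was 0.0663 to 0.103 and −0.0207 to 0.0557 between the genotypes and −0.120 to 0.0264 and 0.0597 to 0.216 between the treatments. With the replicate number as a block, the helicases called were 0 between the genotypes with vehicle, 3 with pyridostatin (DDX1, DHX30 and DHX9) and 1 with pyridostatin in the cells labelled PARP3-/-.

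Without counts, intervals for single values were not computed, and changes within about 0.1 in log2 lay near 2 standard errors of a typical helicase.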

Other observations

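DDX39B and DHX16, the 2 helicases of splicing and export listed at 0 in all 12 libraries, lie on chromosome 6, as does SKIV2L, a helicase of the exosome cofactor complex that was also listed at 0. Of the nearest protein-coding neighbours with a row in the table, up to 20 on each side, 38 of 38 around DDX39B, 38 of 38 around DHX16 and 39 of 40 around SKIV2L were listed at 0 in every library, against 13.9% of 18872 protein-coding genes over the genome. Around DDX43, on the same chromosome and also at 0, it was 4 of 36, and around DDX53 on chromosome X 7 of 37. Around the expressed helicases DDX5 and DDX1 it was 6 of 40 and 4 of 38. The zeros of DDX39B, DHX16 and SKIV2L thus came in stretches of genes that were nearly all listed at 0, and those of DDX43 and DDX53 did not. The values of DDX39B, DHX16 and SKIV2L cannot be read as absence of expression here.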
